A study of Mus musculus with 8 samples.

Results

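The EphA receptors examined here are 7 genes, Epha3, Epha4, Epha5, Epha6, Epha7, Epha8 and Epha10, taken as every probe set whose platform gene symbol is one of these names. Each gene had 1 probe set, so these genes made up 7 of the 19505 genes named on the arrays. Epha1 and Epha2, also A class genes by name, are not among them and are read below with the other Eph receptors. Of the 7, 6 passed the filter on low values and were tested, and Epha8 did not pass. The arrays were Affymetrix 1-colour arrays hybridised with brain RNA of males, 12 weeks old. Clothianidin, a neonicotinoid insecticide that acts on nicotinic acetylcholine receptors, was given at 50 mg/kg/day, which the study names as its no-observed-adverse-effect dose, and controls received a vehicle with 1% DMSO, each for 2 weeks. There were 4 groups of 2 arrays, namely control cortex, exposed cortex, control hippocampus and exposed hippocampus, and arrays are named below by the number in their label (1 and 6 for controls, 3 and 6 for exposed mice, in both tissues). The strain and the number of animals behind an array are not stated in the sources used here, so a p-value here reflects the spread among these arrays alone, part of which may be technical.

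Eph receptors are receptor tyrosine kinases that bind ephrins on the surface of neighbouring cells. Receptors of the A class mainly bind ephrin-A ligands, which are held in the membrane by a lipid anchor, and signals pass into both the receptor-bearing and the ligand-bearing cell. In the developing brain this contact steers axons and sets the borders of projection maps, and in the adult forebrain EphA receptors act on dendritic spines and synapses.

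The tissue labels were checked against marker genes. All 8 tested markers of hippocampal neurons, of 10 listed and 9 with a probe set, were called higher in hippocampus (median log2 difference 4.80). Of these, Dsp (2.91 to 3.44 in cortex), Lct (2.84 to 3.51) and Spink8 (3.16 to 4.29) passed the filter level of 3.937 only through hippocampus. For them, being tested already favoured a higher call. Pkp3, which was not tested, ran the other way (3.52 to 3.73 in cortex, 2.65 to 3.06 in hippocampus). Of 7 tested markers of cortical neurons 6 were called lower (median -2.94). Over all tested probe sets 19.5% were called higher in hippocampus and 11.9% lower. Prox1, a transcription factor of dentate granule cells, lay between 11.34 and 11.96 in hippocampus and between 6.44 and 6.87 in cortex. Choroid plexus genes stood apart on cortex control 6 and hippocampus control 1: the transthyretin gene Ttr was at 15.41 and 19.51 there, against 4.17 to 7.76 on the other 6 arrays. The log2 of the summed level of the 8 choroid plexus markers was 15.43 and 19.56 on those arrays and 7.37 to 9.19 on the rest. Array medians were 5.21 to 5.40 on the log2 scale. With 2 arrays per group, precision is limited by how few arrays there are.

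The first comparison asked how the receptors differ between the regions, with the mean of both arms over 4 arrays per tissue. Epha6, Epha7, Epha3, Epha4 and Epha5 were all higher in hippocampus, by 2.02- to 19.3-fold, and on each of them all 4 hippocampal arrays lay above all 4 cortical arrays. In limma's test with Benjamini-Hochberg adjustment over 14804 probe sets, 5 of the 6 tested members were called higher and 0 lower, against 19.5% of all tested probe sets called higher (31.3% called in either direction). Arrays of the tissues did not overlap, with hippocampus higher, in the same 5 members, against 19.0% of all tested probe sets. The median difference over the 6 tested members was 2.15, against 0.11 over all tested probe sets. The members were chosen with earlier results of these data known, so these shares do not test whether the receptors stand out. Both tissue means of each tested member lay above the filter level of 3.937, so none passed only through the tissue where it was high. In bulk tissue, fewer cells of a type and less RNA per cell cannot be told apart.

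**Figure D1:**
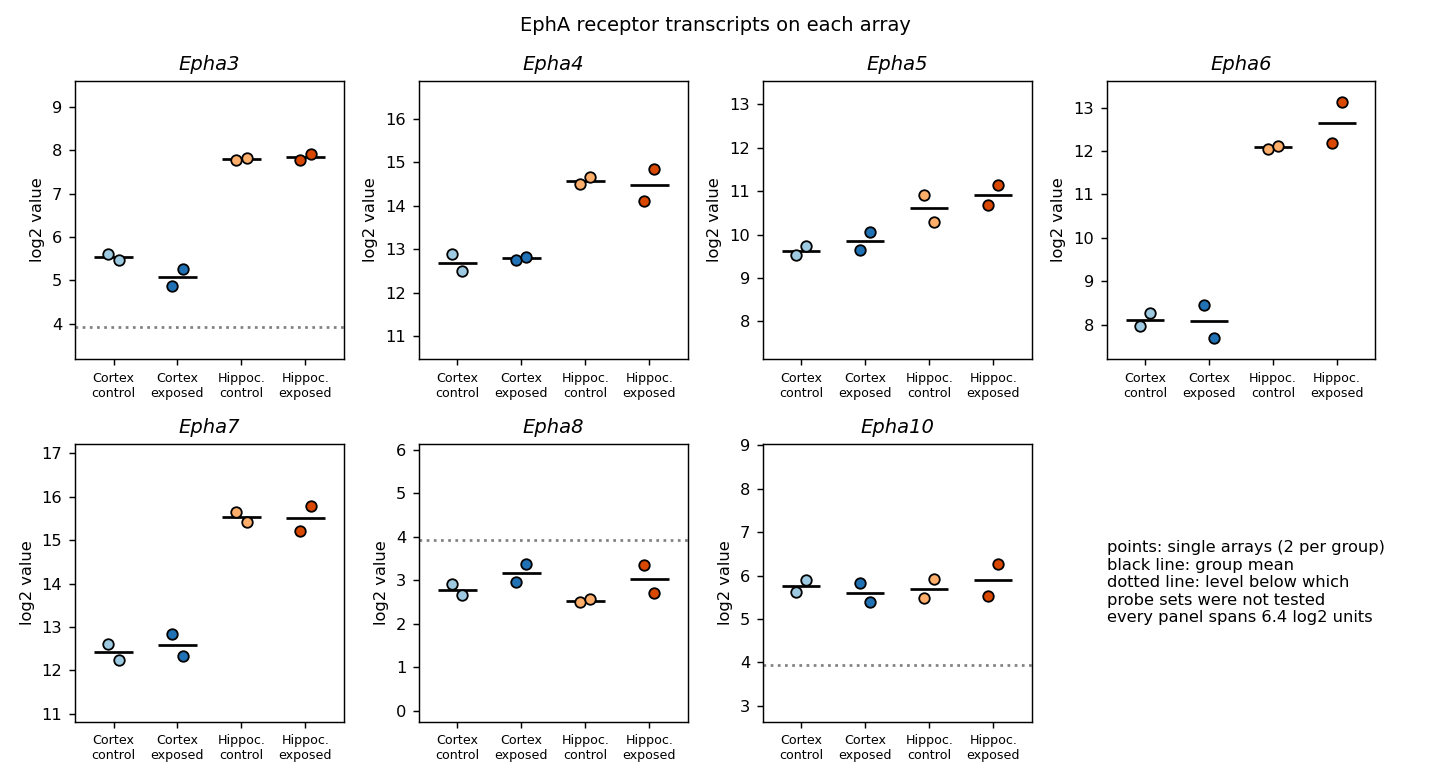
Log2 value of the 7 EphA receptor genes on each of the 8 arrays, with 1 panel per gene; points are single arrays (2 per group) and black lines are group means, every panel covers the same span of log2 units, and the dotted line is the level of 3.937 below which probe sets were not tested. In Epha3, Epha4, Epha5, Epha6 and Epha7 every hippocampal array lies above every cortical array, Epha10 overlaps between tissues, and Epha8 lies under the dotted line on all arrays.

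Epha6, an EphA receptor best known from neurons, had the largest difference of the 7 genes. It measured 7.97 and 8.26 in control cortex, 8.45 and 7.70 in exposed cortex, 12.04 and 12.12 in control hippocampus and 12.19 and 13.12 in exposed hippocampus. Hippocampus stood 4.27 above cortex on the log2 scale (SE 0.24, 95% interval 3.75 to 4.79, 19.3-fold, limma adjusted p = 1.5e-07). Its difference ranked 18 among the 14804 tested probe sets when these were ordered from the most raised in hippocampus.

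Epha7, which shapes dendrites and spines in forebrain neurons, came second. Its values were 12.61 and 12.25 in control cortex, 12.85 and 12.33 in exposed cortex, 15.64 and 15.42 in control hippocampus and 15.21 and 15.79 in exposed hippocampus. The lowest hippocampal array (15.21) lay above the highest cortical array (12.85), with a difference of the tissue means of 3.01 (SE 0.19, 95% interval 2.60 to 3.41, 8.03-fold, limma adjusted p = 3.4e-07).

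Epha3, a receptor studied in axon guidance and topographic mapping, was at 5.60 and 5.48 in control cortex and 4.88 and 5.26 in exposed cortex. In hippocampus it measured 7.78 and 7.81 in controls and 7.77 and 7.90 in exposed mice, so the 4 hippocampal arrays lay close together (7.82 ± 0.06, SD, n = 4). The difference was 2.51 (SE 0.19, 95% interval 2.09 to 2.93, 5.70-fold, limma adjusted p = 1.9e-06).

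Epha4, which binds ephrins of both classes and is enriched on hippocampal dendritic spines, measured 12.89 and 12.49 in control cortex and 12.76 and 12.82 in exposed cortex. Hippocampal values were 14.50 and 14.65 in controls and 14.11 and 14.85 in exposed mice, all above the cortical ones. The hippocampal mean was higher by 1.79 (SE 0.19, 95% interval 1.38 to 2.19, 3.45-fold, limma adjusted p = 2.2e-05).

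Epha5, a receptor expressed widely in forebrain neurons, had the smallest of the called differences. It measured 9.53 and 9.73 in control cortex, 9.65 and 10.06 in exposed cortex, 10.91 and 10.30 in control hippocampus and 10.68 and 11.14 in exposed hippocampus. The gap between hippocampus control 6 and cortex exposed 6 was the narrowest of the 5 called genes, and the difference of the means was 1.02 (SE 0.20, 95% interval 0.57 to 1.46, 2.02-fold, limma adjusted p = 0.0028).

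Epha10, a family member whose kinase domain is thought to be inactive, was not called. Its values were 5.62 and 5.90 in control cortex, 5.82 and 5.40 in exposed cortex, 5.48 and 5.91 in control hippocampus and 5.52 and 6.27 in exposed hippocampus, and the tissues overlapped. The difference of 0.11 (SE 0.24, 95% interval -0.41 to 0.63, limma adjusted p = 0.76) turned to -0.04 with quantile normalization or with each array centred on its median, and to -0.08 without hippocampus exposed 6.

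Epha8 lay between 2.51 and 3.38 on the 8 arrays, under the filter level on every one, and was not tested. Its group means were 2.79 ± 0.18 (SD, n = 2) in control cortex, 3.17 ± 0.30 (SD, n = 2) in exposed cortex, 2.54 ± 0.04 (SD, n = 2) in control hippocampus and 3.04 ± 0.45 (SD, n = 2) in exposed hippocampus. These levels were not shown to be above background.

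The scale of the arrays shifts all tissue differences slightly. The median difference over all tested probe sets was 0.11 as deposited, 0.01 with quantile normalization and -0.04 with arrays centred on their medians. Of the probe sets called between tissues, 62.2% were higher in hippocampus as deposited, 50.2% with quantile normalization and 44.5% with median centring. The 5 called receptors kept their direction and call under each of these scalings, with differences of 4.12 for Epha6, 2.86 for Epha7, 2.36 for Epha3, 1.64 for Epha4 and 0.87 for Epha5 after median centring.

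The regional pattern was then read in each arm alone. In control arrays 5 of 6 tested members were called higher in hippocampus, against 10.1% of all tested probe sets, and in exposed arrays 5 of 6 were called higher, against 9.25%. The exposed and control arms do not share arrays, but their SEs and p-values share the same estimate of the spread. The calls of the arms are therefore not independent. The choice of members with earlier results known limits these shares too. Epha6 differed by 3.97 in control arrays (SE 0.34) and by 4.58 in exposed arrays (SE 0.34). For Epha7 the differences were 3.10 (SE 0.26) and 2.91 (SE 0.26), for Epha3 they were 2.26 (SE 0.27) and 2.77 (SE 0.27), and for Epha4 they were 1.89 (SE 0.26) and 1.69 (SE 0.26).

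The call of Epha5 was the least secure within an arm. It differed by 0.98 in control arrays (SE 0.29, limma adjusted p = 0.036) and by 1.06 in exposed arrays (SE 0.29, limma adjusted p = 0.029). Leaving out 1 array leaves its group with a lone array, assumed to vary like the other groups. On that footing the control-arm call was lost without cortex control 1 (0.88), cortex control 6 (1.08) or hippocampus control 1 (0.67), and the exposed-arm call without cortex exposed 3 (0.85), cortex exposed 6 (1.26) or hippocampus exposed 6 (0.83). Over all alternatives its limma adjusted p was 0.013 to 0.28 in control and 0.0099 to 0.19 in exposed arrays. In the mean of both arms, all 5 members were called under each of the 16 alternatives, and Epha5 kept adjusted p of 0.00067 to 0.024.

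**Figure D2:**
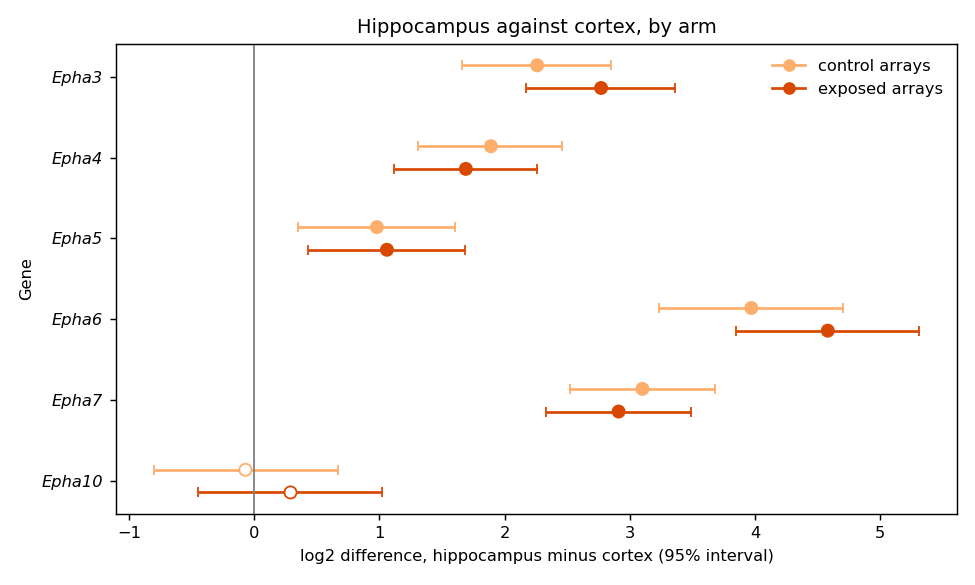
Log2 difference, hippocampus minus cortex, for the 6 tested EphA receptor genes in control and in exposed arrays; bars are 95% intervals from limma, filled points passed an adjusted p of 0.05 and open points did not. Epha6 lies farthest from 0 (3.97 in control and 4.58 in exposed arrays), 5 genes are filled in both arms, and both Epha10 intervals cross 0.

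The order of the 4 groups followed the tissues first. In Epha3, Epha4, Epha5, Epha6 and Epha7 both cortical groups came below both hippocampal groups. Neighbouring groups of the same tissue overlapped in Epha4, Epha5 and Epha7, so no order can be read between control and exposed arrays there. In Epha3 the exposed cortex mean (5.07 ± 0.27, SD, n = 2) lay below the control cortex mean (5.54 ± 0.08, SD, n = 2) without overlap, while the hippocampal groups overlapped. In Epha6 the cortical groups overlapped and the exposed hippocampus mean (12.66 ± 0.66, SD, n = 2) lay above the control hippocampus mean (12.08 ± 0.06, SD, n = 2) without overlap. Exposed cortex lay below control without overlap in 21.4% of all tested probe sets, and exposed hippocampus above control in 16.7%. Neither difference was called, so no order is read from them either. All 4 groups of Epha10 overlapped with their neighbours in the order.

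Genes with the most similar profile over the 8 arrays were listed for each tested member, as a description. For the 5 called members each profile is mainly a difference between 2 tissues, so the likeness says little beyond that. For Epha7 the nearest was Shisa6, which encodes an auxiliary protein of AMPA receptors (Pearson r = 0.997 over 8 arrays), with a tissue difference of 7.39. For Epha6 the nearest were Tanc1, a postsynaptic scaffold gene, and Scn3b, a sodium channel subunit gene (r = 0.996 each), with tissue differences of 3.12 and 3.15. For Epha4 the nearest was Stum (r = 0.996), for Epha3 Tnfrsf21, a death receptor gene (r = 0.997), and for Epha5 Rnf112 (r = 0.985). The nearest for Epha10, which was not called between tissues, was Speer4b at r = 0.916. As the highest r of many candidates over 8 arrays, this value does not show a link.

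The 7 genes lie on 4 chromosomes of the RefSeq table, with Epha3 and Epha6 on chromosome 16, Epha7, Epha8 and Epha10 on chromosome 4, Epha4 on chromosome 1 and Epha5 on chromosome 5. The nearest tested protein-coding gene on each side was read for the 5 called members, a comparison added after the members' values had been seen. Each of these 10 neighbours had a smaller difference in size than the receptor beside it. The receptors were taken because they were called, and their differences ranked 18 (Epha6) to 1134 (Epha5) of 14804. A smaller difference beside them was therefore likely from the start. Crybg3, next to Epha6, was lower in hippocampus, with a difference of -1.06 (SE 0.22, limma adjusted p = 0.0033), and Nsun3 on its other side was at 0.56 (SE 0.22, limma adjusted p = 0.071). The neighbours of Epha3, Pros1 and 4930453N24Rik, were higher by 0.78 (SE 0.20, limma adjusted p = 0.011) and 0.90 (SE 0.18, limma adjusted p = 0.0024). The neighbours of Epha4, Slc4a3 and Pax3, differed by -0.47 and -0.14, those of Epha5, Tecrl and Cenpc1, by 0.49 and 0.06, and those of Epha7, Manea and Map3k7, by 0.07 and 0.66. Among the neighbours of Epha4, Epha5 and Epha7 only Map3k7 was called (SE 0.19, limma adjusted p = 0.018).

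Since 5 members shared a direction, the 250 bases before the start of each gene were read from the RefSeq promoter table of build GRCm38.p6, in which all 7 symbols matched and Epha7 has 2 starts. The windows of the members with the largest differences, and that of Epha10 as the tested member without a call, are given 5′ to 3′ on the gene's strand. Capitals mark GC boxes (GGGCGG) and CCAAT boxes (CCAAT), each searched on both strands, as found by exact match. They are chr16:60605532-60605781 on the minus strand for Epha6, chr4:28812881-28813130 on the plus strand for Epha7 (its first start), chr16:63864176-63864425 on the minus strand for Epha3 and chr4:124881535-124881784 on the plus strand for Epha10.
Epha6: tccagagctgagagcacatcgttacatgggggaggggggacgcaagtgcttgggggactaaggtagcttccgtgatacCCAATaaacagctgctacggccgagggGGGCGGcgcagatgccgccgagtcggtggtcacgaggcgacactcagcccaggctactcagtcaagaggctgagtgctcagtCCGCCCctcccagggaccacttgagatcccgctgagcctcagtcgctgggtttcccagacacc
Epha7: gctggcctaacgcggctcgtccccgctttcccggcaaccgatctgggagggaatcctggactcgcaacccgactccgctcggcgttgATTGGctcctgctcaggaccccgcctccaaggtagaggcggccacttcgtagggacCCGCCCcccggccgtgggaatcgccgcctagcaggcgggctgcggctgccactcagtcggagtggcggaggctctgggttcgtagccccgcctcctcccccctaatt
Epha3: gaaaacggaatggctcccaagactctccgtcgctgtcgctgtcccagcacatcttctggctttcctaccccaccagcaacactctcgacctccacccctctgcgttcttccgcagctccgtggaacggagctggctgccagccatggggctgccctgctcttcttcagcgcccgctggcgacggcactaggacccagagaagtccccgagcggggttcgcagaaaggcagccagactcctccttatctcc
Epha10: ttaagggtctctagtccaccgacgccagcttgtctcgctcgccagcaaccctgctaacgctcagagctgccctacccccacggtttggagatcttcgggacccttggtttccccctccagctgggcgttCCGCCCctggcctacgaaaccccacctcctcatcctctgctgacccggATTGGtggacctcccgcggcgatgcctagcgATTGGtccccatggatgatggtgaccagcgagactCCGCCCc

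All 7 genes had GC-rich windows, with 62.4% to 84% G or C against a median of 52.4% over 32851 promoter windows, and with 14 to 46 CpG dinucleotides against a median of 6. None held the TATA box letters TATAAA, which 12.4% of all windows hold. GC boxes were found in every gene except Epha3, against 32.7% of all windows, and CCAAT boxes in every gene except Epha3 and Epha5, against 33.8%. Epha10, which was not called between tissues, held 2 GC boxes and 2 CCAAT boxes, as many as any window of the called genes. These matches describe the letters of the windows and are not sites of binding.

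The other Eph receptors were mostly not called between the tissues, and the difference between the lists was not tested. Of 5 tested genes (of 7 listed, 6 with a probe set), 0 were called higher and 1 lower in hippocampus, against 19.5% and 11.9% of all tested probe sets, with a median of -0.32. With 5 genes these counts are near those shares. The list holds the A class genes Epha1, which was tested, and Epha2, which was not. Ephb6, a B class receptor that lacks kinase activity, measured 8.04 to 8.95 in cortex and 6.93 to 7.44 in hippocampus, lower by -1.26 (SE 0.24, limma adjusted p = 0.0018). Epha1 differed by 0.60 (SE 0.21, limma adjusted p = 0.0504), Ephb3 by -0.55 (SE 0.23, limma adjusted p = 0.091) and Ephb1 by 0.30 (SE 0.17). Without hippocampus control 1 the number called was 3, with Epha1 higher and Ephb3 lower, and without cortex exposed 6 it was 2.

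Among the ligands, directions were split. Of the 8 ephrin genes, all tested, 2 were called higher and 3 lower in hippocampus, against 19.5% and 11.9% of all tested probe sets, and the median was -0.17. Efna5, which encodes an A class ligand of the EphA receptors used in topographic mapping, measured 9.27 and 8.93 in control cortex and 8.80 and 9.43 in exposed cortex. In hippocampus it measured 5.45 and 6.07 in controls and 5.42 and 6.04 in exposed mice, so it ran opposite to the receptors. The difference was -3.36 (SE 0.24, 95% interval -3.89 to -2.84, limma adjusted p = 1.1e-06), with cortex 10.3-fold higher.

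Efna3, the ephrin-A that astrocytes present to EphA4 on hippocampal spines, was higher in hippocampus. It measured 10.97 to 11.53 in cortex and 11.95 to 12.38 in hippocampus, without overlap, a difference of 0.83 (SE 0.16, limma adjusted p = 0.0019). Of the transmembrane ligands, which EphA4 also binds, Efnb3 was higher by 1.77 (SE 0.19, limma adjusted p = 2.9e-05) and Efnb2 lower by -1.27 (SE 0.22, limma adjusted p = 0.0012). Efna1, called lower by -0.66 (SE 0.21, limma adjusted p = 0.033), completes the called ligands.

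The list of Eph signalling and shedding genes had 24 tested members of 28 listed (25 with a probe set). Of these, 10 were called higher and 3 lower in hippocampus, against 19.5% and 11.9% of all tested probe sets, and the median was 0.45. Ngef, which encodes ephexin-1, a protein that acts downstream of EphA receptors, measured 11.99 to 12.66 in cortex and 8.98 to 9.97 in hippocampus. It was lower in hippocampus by -2.83 (SE 0.19, limma adjusted p = 6.4e-07), again opposite to the receptors, and so was Arhgef15, the gene of ephexin-5, by -1.26 (SE 0.25, limma adjusted p = 0.0023).

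Genes of the list that were higher in hippocampus included Ptpro, a receptor phosphatase that acts on Eph receptors, by 1.92 (SE 0.21, limma adjusted p = 3.7e-05). Vav3, an exchange factor recruited by activated Eph receptors, was higher by 1.87 (SE 0.22, limma adjusted p = 5.1e-05), and Abl2, a cytoplasmic tyrosine kinase, by 1.81 (SE 0.18, limma adjusted p = 1.6e-05). The protease gene Adam10, which sheds ephrin-A from the cell surface, was not called, at 0.38 (SE 0.19, limma adjusted p = 0.14).

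**Figure D3:**
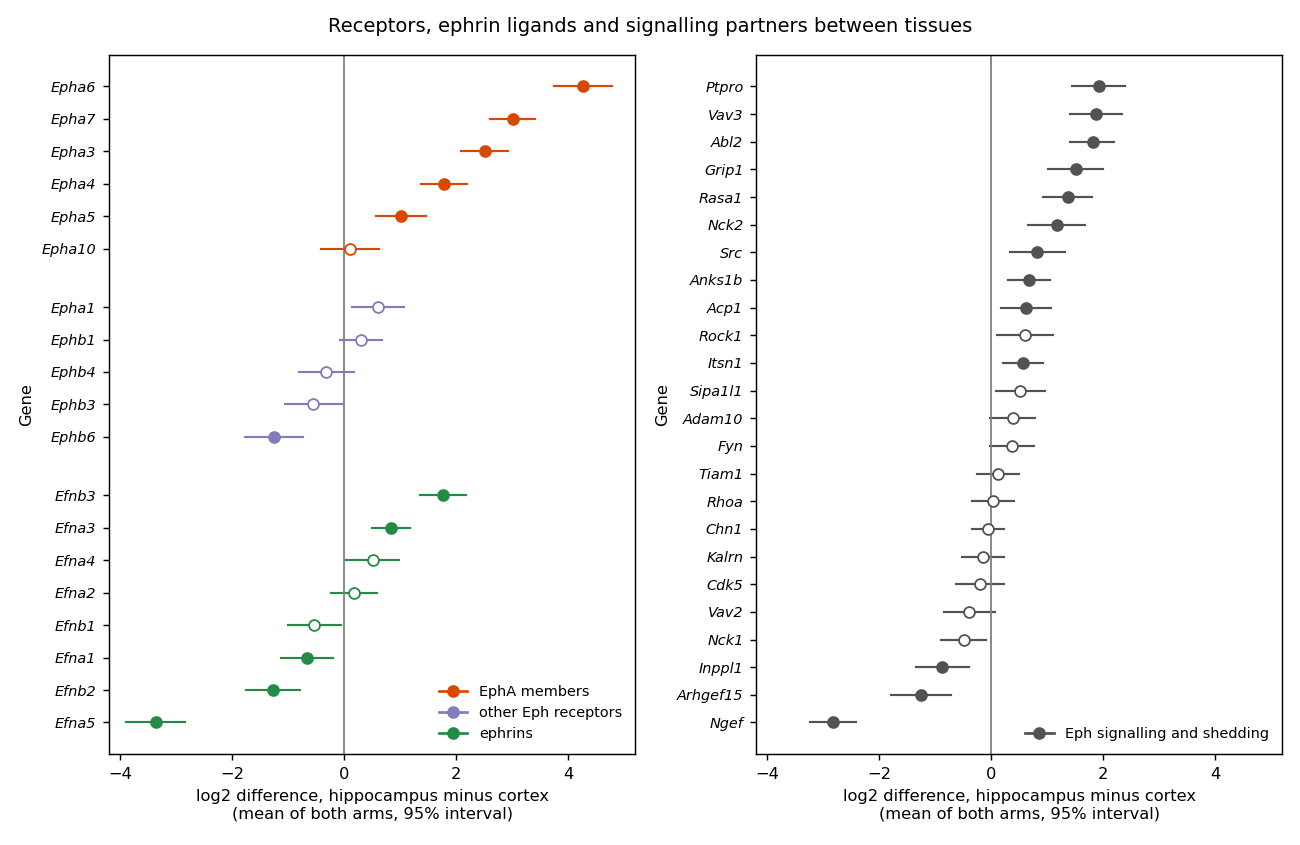
Log2 difference, hippocampus minus cortex as the mean of both arms, for EphA receptors, other Eph receptors, ephrins and Eph signalling and shedding genes; lines are 95% intervals from limma and filled points passed an adjusted p of 0.05. The filled EphA receptor points lie to the right, while the ligand gene Efna5 (-3.36) and the effector gene Ngef (-2.83) lie farthest to the left.

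The tissues also differ in their other cells, whose part in the receptor differences was not tested. The marker counts that follow stand against 19.5% of all tested probe sets called higher and 11.9% called lower. Of 7 tested choroid plexus markers 2 were called higher in hippocampus, and the log2 of their summed level was 7.37 to 15.43 in cortex and 8.81 to 19.56 in hippocampus over both arms. Without cortex control 6 and hippocampus control 1, the arrays high in Ttr, all 5 receptors were called in the mean of both arms. Of 7 astrocyte markers 3 were called higher and 2 lower, of 7 microglial markers 1 higher, and of 7 oligodendrocyte markers 1 higher. Of 6 endothelial markers 2 were called lower, of 5 striatal markers 2 lower, and of 6 thalamic markers 2 higher and 2 lower. Of 6 meningeal and fibroblast markers 3 were called higher, with summed levels of 10.99 to 12.14 in cortex and 10.64 to 14.07 in hippocampus on the log2 scale.

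The second comparison, the one named by the series' title, asked what exposure did in each tissue. No EphA receptor was called in either. In cortex 0 of 6 tested members passed in limma's test (0 at an unadjusted p under 0.05), against 0.00675% of all tested probe sets called and 6.18% at an unadjusted p under 0.05. In hippocampus 0 of 6 passed (0 at an unadjusted p under 0.05), against 0.00675% called and 5.81% unadjusted. Over both tissues the 95% intervals of the members ran from -1.06 to 1.31, so with 2 arrays per group changes of up to those sizes lie within the intervals.

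The largest exposure differences were those of Epha3 in cortex and Epha6 in hippocampus. Epha3 differed by -0.47 in exposed cortex (SE 0.27, 95% interval -1.06 to 0.12, limma adjusted p = 0.81), with both exposed arrays (4.88 and 5.26) below both controls (5.60 and 5.48). Such a pattern, exposed cortex below control without overlap, held for 21.4% of all tested probe sets. In hippocampus Epha3 differed by 0.04 (SE 0.27).

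Epha6 differed by 0.58 in exposed hippocampus (SE 0.34, 95% interval -0.16 to 1.31, limma adjusted p = 0.90), with 12.19 and 13.12 in exposed arrays against 12.04 and 12.12 in controls. Exposed arrays lay above controls without overlap in 16.7% of all tested probe sets. The size rested on hippocampus exposed 6, since the difference was 0.11 without it and 1.04 without hippocampus exposed 3. In cortex Epha6 differed by -0.04 (SE 0.34).

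The remaining tested members had smaller differences. Epha4 differed by 0.10 in cortex and -0.10 in hippocampus (SE 0.26 each), and Epha7 by 0.16 and -0.03 (SE 0.26 each). Epha5 differed by 0.23 in cortex and 0.31 in hippocampus (SE 0.29 each), with ranges of 0.02 to 0.43 and 0.00 to 0.61 when 1 array was left out. Epha10 differed by -0.15 and 0.20 (SE 0.34 each). In none of these did the exposed and control arrays of a tissue separate, and those of Epha4, Epha7 and Epha10 changed sign in both tissues when 1 array was left out. The untested Epha8 measured 2.96 and 3.38 in exposed against 2.91 and 2.66 in control cortex, and 3.36 and 2.72 in exposed against 2.51 and 2.56 in control hippocampus. Its exposed arrays lay above the controls in both tissues, by 0.39 and 0.51 between the means, at levels under the filter. Exposed arrays lay above controls without overlap in 17.1% of all tested probe sets in cortex and 16.7% in hippocampus.

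**Figure D4:**
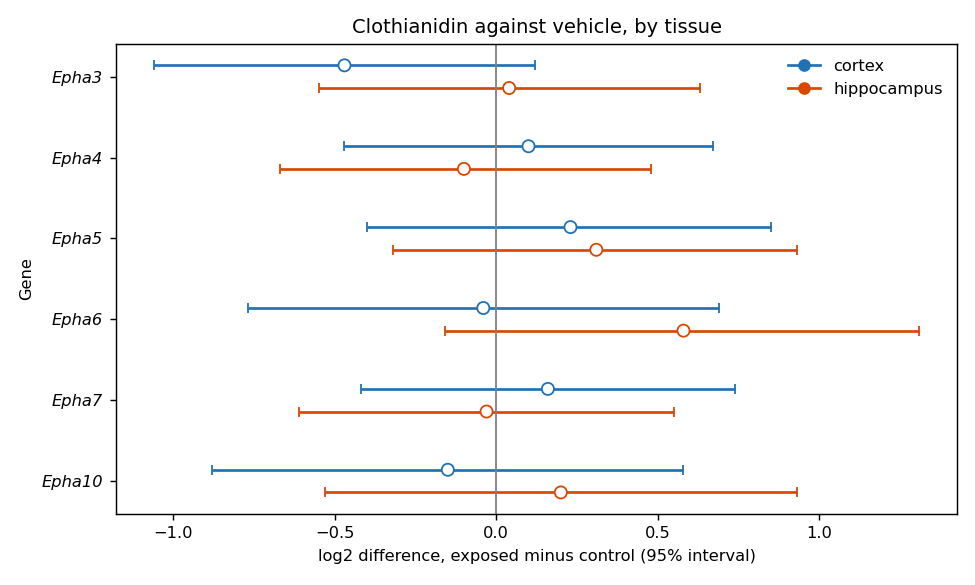
Log2 difference, exposed minus control, for the 6 tested EphA receptor genes in cortex and in hippocampus; bars are 95% intervals from limma and open points did not pass an adjusted p of 0.05. All 12 intervals cross 0, and the widest excursions are -0.47 for Epha3 in cortex and 0.58 for Epha6 in hippocampus.

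Whether the exposure effects differed between the tissues was tested as an interaction, which is also the test of whether the regional pattern differed between the arms. In limma's test 0 of 6 members were called (0 at an unadjusted p under 0.05), against 0% of all tested probe sets called and 3.45% at an unadjusted p under 0.05. Epha6 had the largest difference between the effects (hippocampus minus cortex), at 0.62 (SE 0.48, 95% interval -0.42 to 1.65, and 0.15 without hippocampus exposed 6 or 0.24 without cortex exposed 6), followed by Epha3 at 0.51 (SE 0.39, 95% interval -0.33 to 1.35). The others lay between -0.20 and 0.35, each with limma adjusted p = 1.

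The highest hippocampal values of the members fell on 1 array, in a comparison that was not among those planned. All 6 tested members had their highest hippocampal value on hippocampus exposed 6, where 26.7% of all tested probe sets did, and where the array median was 5.37 against 5.38 to 5.40 on the other hippocampal arrays. Against the mean of the 4 hippocampal arrays, Epha6 stood 0.75 higher there, Epha10 0.48, Epha5 0.38, Epha4 0.32, Epha7 0.28 and Epha3 0.09. The other exposed hippocampal array, exposed 3, was below that mean in all 6, most for Epha4 (-0.42). The high values of exposed 6 raise that mean, and no share over all tested probe sets was taken for exposed 3. In cortex the highest values were spread over all 4 arrays.

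**Figure D5:**
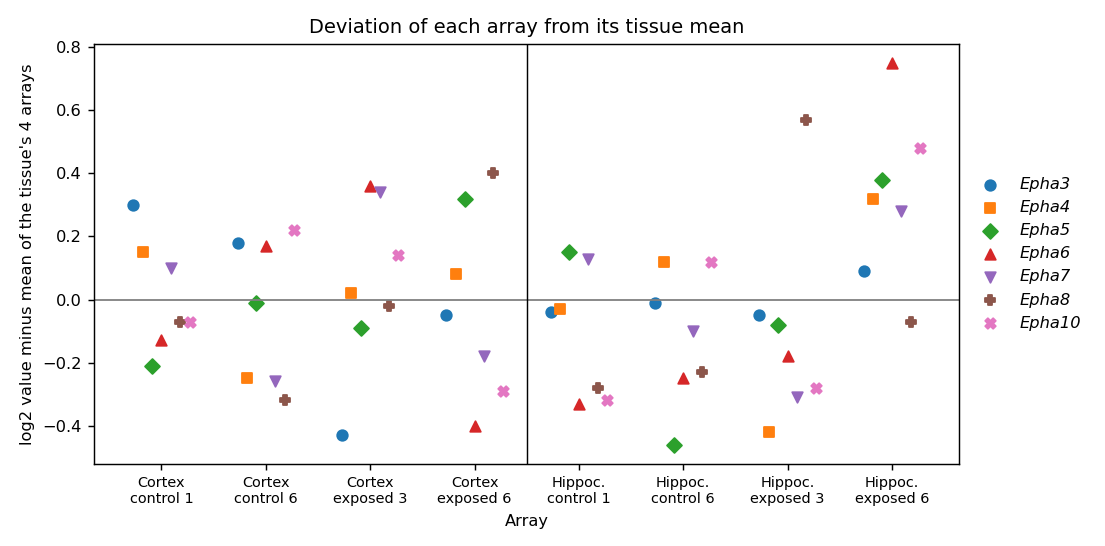
Log2 value of each EphA receptor gene on each array minus the mean of the 4 arrays of its tissue; symbols are genes and the vertical line separates cortex from hippocampus. On hippocampus exposed 6 the 6 tested genes lie above 0, from 0.09 for Epha3 to 0.75 for Epha6, while on the cortical arrays positive and negative values mix.

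The other genes of the pathway gave no call for exposure either. Of 5 tested other Eph receptors, 8 ephrins and 24 signalling and shedding genes, 0 were called in cortex (0, 2 and 1 at an unadjusted p under 0.05) and 0 in hippocampus (0, 1 and 2). Over all tested probe sets 0.00675% were called in each tissue. Unadjusted p was under 0.05 in limma's test for 6.18% of them in cortex and 5.81% in hippocampus. Efna2, an A class ligand gene, had the smallest p of the ephrins in both tissues. It measured 6.12 and 6.30 in control cortex against 5.47 and 5.59 in exposed cortex, and 6.51 and 6.46 in control hippocampus against 5.53 and 5.69 in exposed hippocampus. Exposed arrays lay below controls in each tissue, as held for 21.4% of all tested probe sets in cortex and 14.0% in hippocampus. The differences of Efna2 were -0.68 (SE 0.27, limma adjusted p = 0.78) in cortex and -0.88 (SE 0.27, limma adjusted p = 0.77) in hippocampus, neither of which passed. Over the alternatives the differences were -0.77 to -0.59 and -0.96 to -0.80.

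The other pathway genes with the smallest p of their list for exposure are given as values. In cortex Efna3 differed by -0.49 (SE 0.22), Cdk5, a kinase that phosphorylates ephexin-1, by -0.81 (SE 0.28), Acp1, a low molecular weight phosphatase gene, by 0.62 (SE 0.29) and Ephb4 by 0.56 (SE 0.32, and 0.17 without cortex exposed 3). In hippocampus Ngef differed by 0.72 (SE 0.27), the PDZ scaffold gene Grip1 by 0.82 (SE 0.31, and 0.46 without hippocampus exposed 6), Ephb3 by 0.38 (SE 0.33) and Efnb3 by -0.31 (SE 0.27). Epha1 differed by 0.30 in cortex and -0.33 in hippocampus (SE 0.30 each), and by 0.05 to 0.55 and -0.48 to -0.17 when 1 array was left out. All of these missed the adjusted threshold.

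As a list, the ephrins split evenly for exposure in cortex, with 4 of 8 below 0 and a median of -0.08. There 2 lay higher and 2 lower without overlap, against 17.1% and 21.4% of all tested probe sets. In hippocampus 7 of 8 were below 0, with a median of -0.26 against 0.01 over all tested probe sets. Of the 8, 6 lay lower without overlap, against 14.0% of all tested probe sets, and 0 were called. In the same hippocampal comparison all 7 tested choroid plexus markers were below 0 (median -3.33). That drop rested on hippocampus control 1, where the log2 of their summed level was 19.56. It was 9.02 on hippocampus control 6, and 9.19 and 8.81 on the exposed arrays. Among these markers Otx2 passed the filter level of 3.937 only through hippocampus control 1 (9.55, against 3.25 to 3.85 on the other arrays). For Otx2, being tested already favoured a drop. Of 7 cortical neuron markers 4 lay higher without overlap (median 0.54), against 16.7% of all tested probe sets. Medians of the other marker lists ran from -0.38 (meninges and fibroblasts) to 0.29 (thalamus). The part of these cells in the ephrin values was not tested.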

How the data were processed

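Total RNA (250 ng, accepted at an integrity number above 7.0, per the labels' protocols) was hybridised to 8 Affymetrix arrays. The authors deposited normalized log2 values per probe set; RMA is named in the submitters' processing notes, while its version, its summary level and whether arrays were normalized together are not stated there. The log base was taken from the range, 1.59 to 19.93. No detection values were used. Of 22206 probe sets, 19572 have 1 symbol, 2634 none and 0 several; all 19572 matched the RefSeq table (GRCm38.p6) by Entrez identifier.

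Probe sets in the lowest 33.3% by mean (below 3.937) were left out and 14804 tested. limma 3.58.1 in R 4.3.3 fitted 1 mean per tissue and arm over 8 arrays (eBayes with trend, 4 residual and 7.918 prior degrees of freedom), two-sided, with Benjamini-Hochberg adjustment over all tested probe sets, threshold 0.05. Arrays of a group correlated at 0.9867 to 0.9915 across probe sets and no pair held the same values throughout. The script was tested on simulated data. Members and lists were chosen with earlier results of these data known. From each pathway list, up to 4 genes by p between tissues and 2 per exposure comparison were named, with 1 probe set per gene; Efna1, Arhgef15, Adam10, Prox1 and the neighbouring genes were named after their values were seen, and up to 3 most similar profiles were sought among probe sets with a range of at least 1. Alternatives were no filter, the lowest 50% left out, quantile normalization, median centring, no trend, array weights, without the arrays high in Ttr, without each array, and the number within an arm as a block.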

Additional observations from a re-analysis of the deposited data

How the results depend on the processing

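In the mean of both arms the 5 called receptors kept direction and call under all 16 alternatives, and their number called stayed at 5. Within an arm it was 4 or 5, because the Epha5 call was lost in 5 of 16 alternatives in each arm. In control arrays Epha5 was at 0.82 with median centring (adjusted p = 0.074) and 0.77 without the arrays high in Ttr (0.28). In exposed arrays it was at 0.91 with quantile normalization (0.0501) and 0.92 with median centring (0.055). For exposure and its difference between tissues, 0 members were called under every alternative run. The cause of these shifts was not tested.

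Only results without a call changed sign. Epha10 between tissues was -0.04 with quantile normalization and -0.04 with median centring, and 0.29 in control arrays without the arrays high in Ttr. Without those arrays Epha4 (-0.10), Epha6 (0.11) and Epha7 (-0.02) changed sign for exposure in cortex, as did Epha7 (0.08) and Epha10 (-0.02) in hippocampus and Epha7 (0.10) and Epha10 (-0.01) for the difference between tissues. With quantile normalization the difference between tissues was -0.01 for Epha5. Leaving out 1 array moved Epha10 between -0.08 and 0.30 in the mean of both arms, between -0.28 and 0.15 in the control arm, and between -0.09 and 0.66 in the exposed arm. For exposure in cortex the ranges were -0.10 to 0.30 (Epha4), -0.42 to 0.34 (Epha6), -0.10 to 0.42 (Epha7) and -0.36 to 0.06 (Epha10). In hippocampus they were -0.03 to 0.11 (Epha3), -0.47 to 0.28 (Epha4), -0.32 to 0.26 (Epha7), -0.18 to 0.58 (Epha10) and -0.01 to 0.76 (Ephb3). For the difference between tissues they were -0.57 to 0.18 (Epha4), -0.23 to 0.39 (Epha5), -0.48 to 0.10 (Epha7) and -0.03 to 0.73 (Epha10).

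Of the other Eph receptors 1 was called between tissues, against 2 with quantile normalization, 2 with median centring, 2 without the trend, 2 with the replicate block, and 1 to 3 without 1 array (3 without hippocampus control 1). Over all probe sets 2620 were called between tissues in control arrays, against 1143 without the arrays high in Ttr and 1287 to 2522 without 1 array (lowest without cortex control 1, and 1299 without cortex control 6), and 2143 in exposed arrays, against 1073 to 2434 without 1 array (1073 and 1184 without cortex exposed 3 and 6, 1366 and 1104 without hippocampus exposed 3 and 6). For exposure in cortex 1 was called, against 0 with quantile normalization or without the trend, 2 with array weights, 3 without the arrays high in Ttr, 2 with the replicate block and 0 to 2 without 1 array. In hippocampus 1 was called, against 0 with quantile normalization, without the trend, with array weights or without the arrays high in Ttr, and 0 to 53 without 1 array (53 without hippocampus control 6). For the difference between tissues 0 were called, against 1 with the replicate block and 0 to 30 without 1 array (30 without hippocampus control 6).

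Whether cortex and hippocampus arrays of the same number come from the same mouse is not stated in the labels, and 2 pairs per arm cannot settle it. Deviations of same-numbered arrays correlated at -0.000881 between tissues in control and 0.276 in exposed mice. With the replicate block the 5 receptors were called between tissues in the mean and in each arm, and 0 were called for exposure. The signal over background of single probe sets is not known here, which limits what can be said of Epha8.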
